A study of Homo sapiens with 6 samples.

Results

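The 10 transcripts described here encode secreted Wnt ligands: WNT2B, WNT3, WNT3A, WNT4, WNT5A, WNT5B, WNT6, WNT7B, WNT10B and WNT11. They are the rows of the count data whose Ensembl identifier carries one of these symbols in GENCODE 44, 10 of the 19977 genes listed. The human genome holds 19 Wnt genes, so 9 are outside the group and are given only where they help to read it. Bulk RNA was sequenced from NCRM-1, a wild type human induced pluripotent stem cell (hiPSC) line, grown for 4 days as aggregates in vertical wheel bioreactors. Of the 6 libraries, 3 are labelled PEG and HS (E8 medium with 10 mg/ml polyethylene glycol and 0.1 µg/ml heparin sodium salt) and 3 are labelled Control (E8 medium alone, called E8 control here). Both media are named for the same line, genotype and day, and 50% of the medium was replaced on the second day. The comparison asks which ligand transcripts differ between the additive mixture and plain E8. PEG and heparin were added together, so their separate effects cannot be told apart.

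Wnt ligands are lipid-modified glycoproteins. The enzyme PORCN attaches the lipid, the carrier WLS brings the ligand to the cell surface, and the ligand then binds a Frizzled receptor. With the co-receptors LRP5 or LRP6 this stabilises beta-catenin, which acts with TCF and LEF factors on target genes. With ROR or RYK receptors it acts on cell polarity and movement, a route for which WNT5A, WNT5B and WNT11 are best known. WNT3 and WNT3A are classical activators of beta-catenin, and in pluripotent cells that signal is known to favour exit towards primitive streak and mesoderm. Heparan sulphate chains, to which heparin is related, bind Wnt proteins outside the cell.

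The libraries held 26991279 to 36185138 counts, with overlapping ranges in both media. Levels are given as CPM, the share of a library's counts scaled to the usual common depth, with library sizes scaled by TMM factors that lay between 0.994 and 1.006. All 8 pluripotency markers examined were present, with summed levels of 8074 to 8346 CPM with PEG and HS and 8660 to 8824 CPM in the E8 control. Of these 8, POU5F1 and NANOG were called higher, with log2 fold changes of 0.23 and 0.55, and SOX2 (-0.59), PODXL (-0.41), LIN28A (-0.30) and SALL4 (-0.25) lower. In the labels, 1 bioreactor letter goes with each medium, and the treatment text of all 6 libraries describes the additive medium, while the treatment field names Control for 3 of them. The treatment field was followed. If each medium came from 1 vessel, the medium cannot be told apart from its vessel, and the p-values measure the spread between samples of a vessel. In bulk RNA, fewer cells that make a ligand and less RNA in each cell cannot be told apart either.

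Of the 10 ligands, 9 had the total of at least 10 counts needed for the test, and 4 of these passed at an adjusted p under 0.05 by edgeR's quasi-likelihood test. WNT4, WNT10B and WNT2B were lower with PEG and HS, by 5.36-fold, 5.09-fold and 1.53-fold. WNT5B was higher, by 1.51-fold. Over all 16505 genes tested, 25.3% were called, 12.2% higher and 13.1% lower, and among genes with a mean under 10 CPM, which takes in all 10 ligands, 14.1% were called. The median log2 fold change of the 9 ligands was -0.13, against 0.0031 over all genes tested. CPM ranges of the media did not overlap for 5 of the 9 ligands, 1 higher and 4 lower, where 39.3% of all genes tested did not overlap, 19.5% higher and 19.8% lower. Of all genes tested, 2.02% were called with a log2 change over 1 in size, as WNT4 and WNT10B were.

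**Figure D1:**
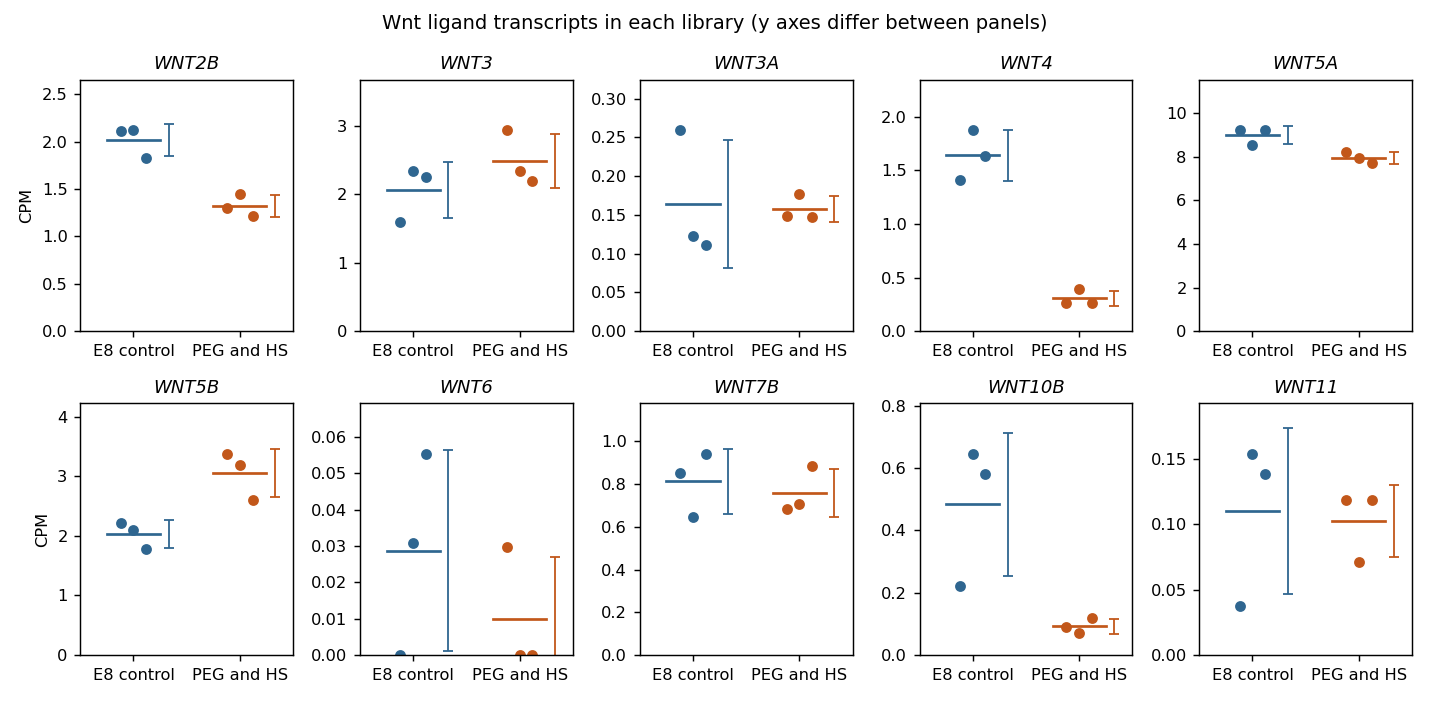
CPM of each ligand transcript in every library, with 3 points for each medium, a line at the mean and a bar of 1 SD beside it. The y axes differ between panels. WNT4, WNT10B and WNT2B lie lower and WNT5B higher with PEG and HS without overlap, and the WNT5A points also separate, between 7.71 and 9.23 CPM.

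WNT4 (ENSG00000162552, minus strand of chromosome 1, 22117313 to 22143969 of GRCh38) encodes a ligand known from the kidney and female reproductive tract. Counts were 9, 11 and 9 in the PEG and HS libraries and 38, 61 and 59 in the E8 control libraries. As CPM these were 0.267, 0.389 and 0.266 with PEG and HS and 1.41, 1.88 and 1.64 in the E8 control. The highest PEG and HS library thus lay under the lowest E8 control library. The mean was 0.307 ± 0.0709 CPM with PEG and HS and 1.64 ± 0.235 CPM in the E8 control (SD over 3 libraries for each, as in all later values of this kind), a log2 fold change of -2.42 (SE 0.29, adjusted p = 1.46e-05, edgeR with Benjamini-Hochberg adjustment). The upper 95% bound of the decrease was 8.21-fold and the lower bound 3.5-fold. WNT4 was called lower in each of the 15 alternative settings tried, including each library left out in turn and a test against a 1.5-fold change, which no other ligand and 1.6% of all genes passed.

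WNT10B (ENSG00000169884, minus strand of chromosome 12, 48965340 to 48971735) encodes an activator of beta-catenin known for holding back fat cell formation. It had 3, 2 and 4 counts with PEG and HS and 6, 21 and 21 counts in the E8 control. The media did not overlap, but E8 control replicate 1 lay far under the remaining E8 control libraries, at 0.222 CPM against 0.646 and 0.582 CPM. Means were 0.0926 ± 0.0239 CPM with PEG and HS and 0.484 ± 0.228 CPM in the E8 control, a log2 fold change of -2.35 (SE 0.55, adjusted p = 0.00523). The decrease rests on 9 counts against 48, and its 95% interval was wide, from 2.26-fold to 11.4-fold. It stayed called with each library left out in turn, with log2 fold changes from -2.67 to -2.11. DESeq2 gave no adjusted p for WNT10B, since its filter set the gene aside for low counts.

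WNT2B (ENSG00000134245, plus strand of chromosome 1, 112466541 to 112530165) encodes a ligand known from eye, lung and limb development. It was measured at 1.30, 1.45 and 1.21 CPM with PEG and HS and at 2.11, 2.12 and 1.83 CPM in the E8 control, again without overlap. The log2 fold change was -0.61 (SE 0.19, adjusted p = 0.0248), on means of 1.32 ± 0.121 and 2.02 ± 0.167 CPM. This call was the least firm of the 4. It was lost with DESeq2 (adjusted p = 0.0727), and without PEG and HS replicate 1 (0.0665), PEG and HS replicate 3 (0.0784), E8 control replicate 1 (0.0665) or E8 control replicate 2 (0.0805). WNT2B shares 21.5% of its exon bases with exons of ST7L on the opposite strand, mainly the 2598 bases from 112523514 to 112526111, and how strand was used in the counting is not given in the sources used here. ST7L was measured at 10.3 ± 0.668 CPM with PEG and HS and 10.1 ± 0.397 CPM in the E8 control (log2 fold change 0.023, adjusted p = 0.86). The part of reads from ST7L in the WNT2B count was not tested.

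WNT5B (ENSG00000111186, plus strand of chromosome 12, 1529891 to 1647212), a ligand of the beta-catenin-independent route in cartilage and fat, was the only member called higher. Its libraries read 3.38, 3.19 and 2.6 CPM with PEG and HS and 2.22, 2.09 and 1.77 CPM in the E8 control. Each PEG and HS library lay over each E8 control library, although the lowest of the former and the highest of the latter were close. Means were 3.06 ± 0.406 and 2.03 ± 0.232 CPM, giving a log2 fold change of 0.59 (SE 0.16, adjusted p = 0.0133) and a 95% interval of 1.19-fold to 1.92-fold. DESeq2 called it as well (adjusted p = 0.0319). The adjusted p rose to 0.0736 without PEG and HS replicate 1 and to 0.0595 without E8 control replicate 3. With DESeq2, WNT4 and WNT5B were the 2 ligands called of the 6 that received an adjusted p, where DESeq2 called 23.3% of all genes with one.

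All 4 calls were made with RLE factors, upper quartile factors, library size alone, no filter on low counts and limma-voom, where 25.2%, 25.1%, 25.8%, 23.4% and 25.3% of all genes were called, and 3 of 6 ligands were called after filterByExpr, where 28.6% of all genes were. A fit with the replicate number as a block called 4 ligands and 26.9% of all genes. With 1 library left out, 2 to 4 ligands were called. The shares of all genes were then 19.0%, 22.1% and 22.5% without PEG and HS replicates 1, 2 and 3, and 21.1%, 19.9% and 22.5% without E8 control replicates 1, 2 and 3.

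Sequences before a start of 3 of the called genes are shown to give the range of promoter makeup among them, which the expression data do not bear on. For WNT2B and WNT5B the second of the listed starts is shown. Each sequence is the 250 bases before a RefSeq start (GRCh38.p14), 5′ to 3′ on the gene's strand, and lies in no exon of GENCODE 44. All 3 lie downstream of the first start that GENCODE gives the gene. The starts used are 872 bases from it for WNT4, 42424 for WNT2B and 99340 for WNT5B. Capitals mark GGGCGG (the GC box bound by SP factors) or TATAAA, searched on both strands (on the other strand they read CCGCCC and TTTATA), and matches may overlap.
WNT4, minus strand, chr1:22143098-22143347: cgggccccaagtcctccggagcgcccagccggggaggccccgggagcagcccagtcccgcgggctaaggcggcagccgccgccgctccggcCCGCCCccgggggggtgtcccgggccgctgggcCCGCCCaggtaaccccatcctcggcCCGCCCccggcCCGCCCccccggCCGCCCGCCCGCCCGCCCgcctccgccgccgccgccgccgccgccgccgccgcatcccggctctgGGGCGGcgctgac
WNT2B, plus strand, second start, chr1:112508715-112508964: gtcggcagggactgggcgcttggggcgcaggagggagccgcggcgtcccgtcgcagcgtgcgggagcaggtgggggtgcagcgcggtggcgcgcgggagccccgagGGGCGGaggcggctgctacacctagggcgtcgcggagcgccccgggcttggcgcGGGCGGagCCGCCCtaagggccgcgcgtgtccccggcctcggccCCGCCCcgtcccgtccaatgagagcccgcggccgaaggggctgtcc
WNT5B, plus strand, second start, chr12:1628981-1629230: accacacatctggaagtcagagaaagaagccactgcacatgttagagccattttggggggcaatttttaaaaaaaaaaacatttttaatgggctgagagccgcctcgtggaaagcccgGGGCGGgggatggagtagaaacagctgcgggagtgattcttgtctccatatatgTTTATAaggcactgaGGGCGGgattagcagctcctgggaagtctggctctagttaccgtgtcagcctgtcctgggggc

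The WNT4 window held 86.8% G and C bases, 40 CpG pairs and 9 GGGCGG matches. The WNT2B window was similar, with 80.0% G and C, 38 CpG pairs and 4 matches. The WNT5B window stood at 50.8% G and C, with 7 CpG pairs, 2 GGGCGG matches and 1 TATAAA match. At the first listed starts the windows of WNT2B and WNT5B, not printed, were closer, with 60.4% and 54.8% G and C and no GGGCGG. That WNT5B window lies wholly within WNT5B exon sequence of GENCODE 44. The window of WNT3A, which was not called, held 86.0% G and C, so base makeup did not separate called from uncalled ligands. Across the 35116 RefSeq windows of this length the median was 58.0% G and C, 42.6% held GGGCGG and 10.7% held TATAAA. The core letters that TCF and LEF factors bind, here CTTTGAT or CTTTGTT, occurred in 6.60% of all windows and in none of the windows listed for WNT2B, WNT3, WNT3A, WNT4, WNT5A, WNT5B or WNT6, which says only that these letters are not in those 250 bases. WNT7B, WNT10B and WNT11 have no window in the table used.

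WNT5A (ENSG00000114251, minus strand of chromosome 3, 55465715 to 55490539), the main ligand of the ROR2 route, was the most counted member. It read 8.24, 7.93 and 7.71 CPM with PEG and HS and 9.23, 8.53 and 9.23 CPM in the E8 control. Although the media did not overlap, the difference was small and did not pass (log2 fold change -0.18, SE 0.075, unadjusted p = 0.0349, adjusted p = 0.107). The 95% interval ran from -0.34 to -0.01, so a decrease of more than 1.26-fold lies outside it. In the alternatives the adjusted p of WNT5A ranged from 0.0877 to 1. WNT5A and its close relative WNT5B therefore had opposite signs, and the difference between their changes was not tested.

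WNT3 (ENSG00000108379, minus strand of chromosome 17, 46762506 to 46833154) had 2.94, 2.34 and 2.19 CPM with PEG and HS and 1.59, 2.34 and 2.24 CPM in the E8 control. The 4 other libraries lay between 2.19 and 2.34 CPM, while PEG and HS replicate 1 was the highest and E8 control replicate 1 the lowest, so the media overlapped (log2 fold change 0.26, 95% interval -0.13 to 0.66, adjusted p = 0.341). WNT7B (ENSG00000188064, minus strand of chromosome 22, 45920366 to 45977162), a ligand of lung and vessel development, had 0.682, 0.708 and 0.886 CPM with PEG and HS and 0.853, 0.646 and 0.942 CPM in the E8 control. The media overlapped, with a log2 fold change of -0.10 (adjusted p = 0.842, 95% interval -0.70 to 0.51).

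WNT3A (ENSG00000154342, plus strand of chromosome 1, 228006998 to 228061271) was near the limit of the counts, with 5 in each PEG and HS library and 7, 4 and 4 in the E8 control libraries. WNT11 (ENSG00000085741, minus strand of chromosome 11, 76186325 to 76210736), known from gastrulation movements and heart formation, had 4, 2 and 4 counts with PEG and HS and 1, 5 and 5 in the E8 control. Their intervals show how little the depth resolves. For WNT3A the log2 interval ran from -1.27 to 1.23 (adjusted p = 0.989) and for WNT11 from -1.59 to 1.34 (adjusted p = 0.92). A change of 2-fold in either direction lies within both intervals, so it is not excluded for either gene. Exons of a long noncoding RNA on the opposite strand overlap 8.6% of the WNT11 exon bases, and reads of either could not be told apart if strand was not used in the counting. WNT6 (ENSG00000115596, plus strand of chromosome 2, 218859805 to 218874233) had 1, 0 and 0 counts with PEG and HS and 0, 1 and 2 in the E8 control. It was not tested. A count of 0 allows up to 3 counts, or 0.0829 to 0.111 CPM in these libraries, for counting error only.

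**Figure D2:**
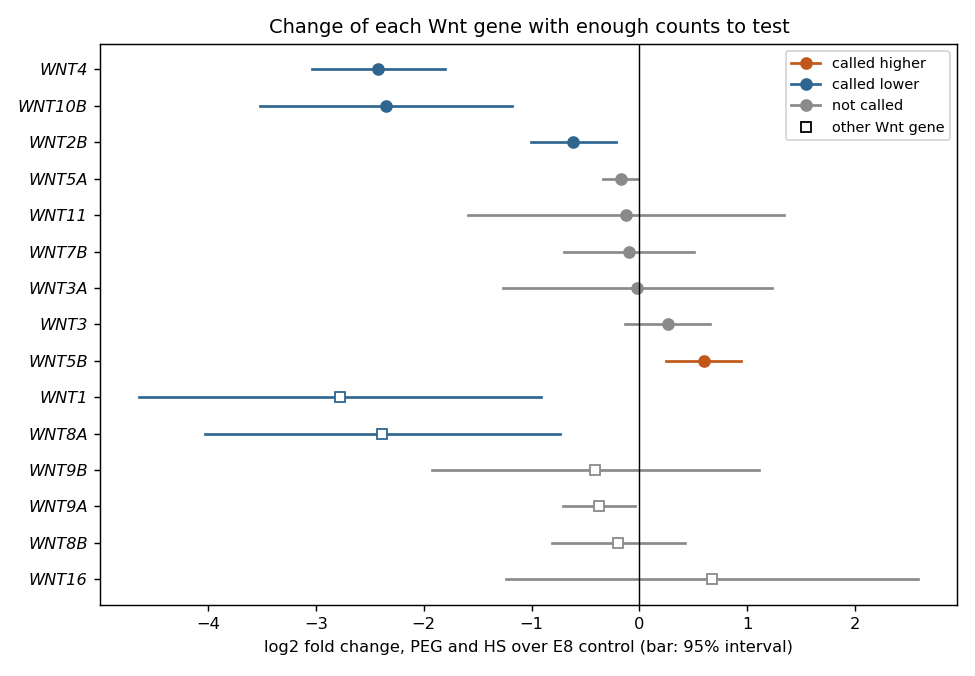
Log2 fold change of PEG and HS over E8 control for each Wnt gene tested, with its 95% interval from edgeR; circles are the ligands described here, open squares the other Wnt genes. The intervals of WNT4, WNT10B and WNT2B lie under 0, that of WNT5B over 0, and those of WNT3A and WNT11 span more than 1 log2 unit to each side.

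Read on the transcript strand, the ligands' sequences are nearly all their own. The other strand was not searched, so the overlaps of WNT2B and WNT11 with exons on the opposite strand are not counted here. Words of 31 bases shared with another gene made up 3.63% of the WNT7B words, the highest share of the 10, 0.37% of those of WNT4 and 0% of those of WNT10B, WNT11 and WNT6.

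For levels between the 10 ligands, CPM was divided by the length of each gene's merged exons. In E8 control WNT5A ranked highest, at 1.26 ± 0.0567 CPM per kb (SD, n = 3), followed by WNT5B (0.479 ± 0.0546), WNT3 (0.382 ± 0.0753), WNT4 (0.353 ± 0.0504), WNT10B (0.186 ± 0.0878), WNT2B (0.163 ± 0.0135), WNT7B (0.160 ± 0.0299), WNT3A, WNT11 and WNT6. Of these neighbours only WNT5A and WNT5B, WNT4 and WNT10B, and WNT7B and WNT3A had ranges that did not overlap. Outside the group, the E8 control means of WNT9A (0.733 ± 0.0718 CPM per kb) and WNT8B (0.510 ± 0.137) lay over that of WNT5B. In PEG and HS the order began with the same 3 genes, WNT5A (1.11 ± 0.0374 CPM per kb), WNT5B (0.721 ± 0.0958) and WNT3 (0.461 ± 0.0736), each without overlap with the next. The PEG and HS mean of WNT9A (0.562 ± 0.0768 CPM per kb) lay over that of WNT3. WNT4 moved from rank 4 in the E8 control to rank 6 with PEG and HS, and WNT10B from rank 5 to rank 9. With PEG and HS the ranges of WNT4 and WNT3A, WNT3A and WNT11, and WNT11 and WNT10B overlapped, so neighbouring ranks from 6 to 9 are not resolved. Dividing by the longest transcript instead left 6 of the 10 ligands at their E8 control rank and put WNT5B ahead of WNT5A with PEG and HS.

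Summed over the 10 ligands, the length-scaled level was 2.94, 2.75 and 2.57 CPM per kb in the PEG and HS libraries and 2.94, 3.19 and 3.16 CPM per kb in the E8 control libraries, so the media overlapped in their total, by the first library of each. Over all 19 Wnt genes the sums did not overlap, at 3.70 to 3.98 and 4.39 to 4.78 CPM per kb. The shares of some ligands did not overlap between the media, while those of WNT5A, WNT7B, WNT3A, WNT11 and WNT6 did. WNT5A held 39.2% to 41.9% of the sum with PEG and HS and 37.3% to 43.9% in the E8 control. The share of WNT5B was 23.9% to 27.3% with PEG and HS and 13.2% to 17.8% in the E8 control. WNT4 took 1.95% to 3.05% with PEG and HS and 10.3% to 12.6% in the E8 control. WNT3, itself not called, had 15.8% to 18.5% against 10.1% to 13.6%. Shares of 1 sum move together, so these are not separate results from the values above.

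**Figure D3:**
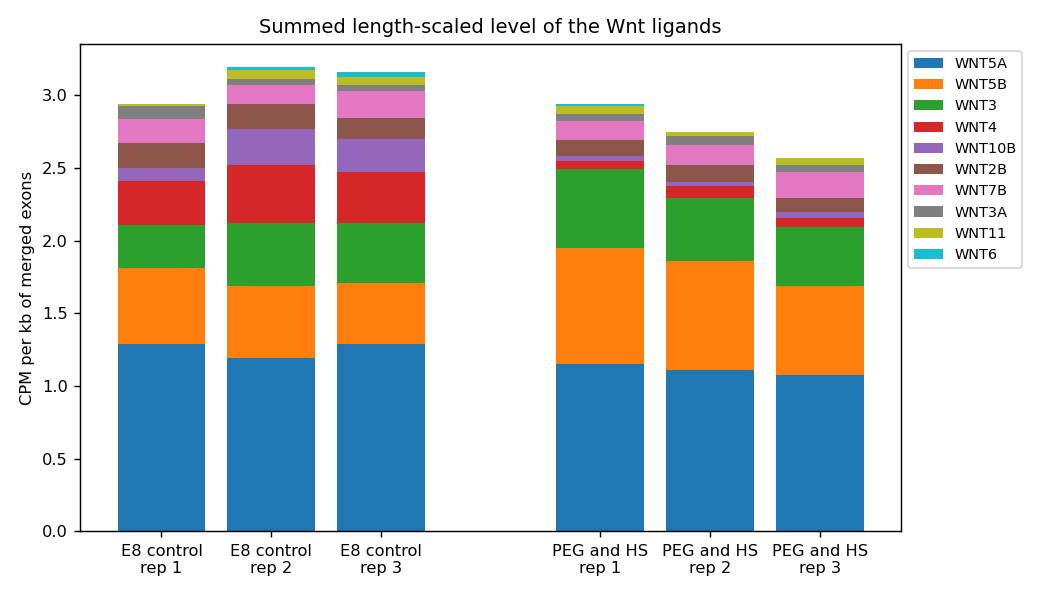
Stacked level of the 10 ligands in each library, in CPM per kb of merged exons, with the genes ordered by their E8 control mean from the bottom. The column heights of the media overlap (2.57 to 2.94 with PEG and HS, 2.94 to 3.19 in the E8 control), while the WNT5B band is taller and the WNT4 and WNT10B bands thinner with PEG and HS.

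Of the 9 Wnt genes outside the group, 6 were tested and 2 called, both lower. Over all genes tested 25.3% were called, and 14.1% of those with a mean under 10 CPM. DESeq2 called 0 genes of this list and gave no adjusted p for WNT1 or WNT8A. WNT1 had 2 counts summed over PEG and HS and 16 over E8 control. The ratio was 7.97, with a counting interval of 1.87 to 71.5. By edgeR the decrease was 6.85-fold, with a 95% interval of 1.89-fold to 24.9-fold (adjusted p = 0.0293). WNT8A had 3 and 17 counts, a ratio of 5.65 with a counting interval of 1.63 to 30.1. Its decrease by edgeR was 5.22-fold, with a 95% interval of 1.67-fold to 16.3-fold (adjusted p = 0.0335). WNT8A lost its call without any one of the libraries except E8 control replicate 3 (adjusted p 0.0666 to 0.105). WNT1 lost it without PEG and HS replicate 1 or 3 or E8 control replicate 2 or 3 (0.0583 to 0.104). WNT9A, at 2.25 ± 0.307 CPM with PEG and HS and 2.94 ± 0.288 CPM in the E8 control, did not pass (log2 fold change -0.38, adjusted p = 0.0949). WNT8B, WNT9B and WNT16 were not called, WNT2 and WNT7A had 9 and 8 counts in all and were not tested, and WNT10A had none.

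Several human Wnt genes lie next to each other, and the ligands could be read by these pairs. WNT10B and WNT1 on chromosome 12 are 6586 bases apart and were both called lower. WNT6 and WNT10A on chromosome 2, 6618 bases apart, were both at or near 0 in every library. WNT3A and WNT9A on chromosome 1 are 59.1 kb apart, and neither was called. WNT3 and WNT9B on chromosome 17 have annotated gene boundaries 46 bases apart, and neither was called. WNT9B had 21 counts in all against 439 for WNT3.

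The ligands can be set beside the genes that make, receive, block and answer Wnt. Over 7 lists with 108 such genes, 102 were tested and 43 called, 9 higher and 34 lower, with a median log2 fold change of -0.087. Of all genes tested 25.3% were called, 12.2% higher and 13.1% lower. That share depends on level. It was 14.1% among genes with a mean under 10 CPM, so it was over 25.3% above that level, where many pathway genes named below lie. A share matched to the level of the lists was not computed. These 7 lists were chosen with earlier results of these data known, so their counts are not independent of the data. They hold FRZB, FZD5 and BMP4, which the paper had already named as lower with PEG and HS. WLS, the carrier of the ligands, was lower (4.72 ± 0.252 CPM with PEG and HS, 8.16 ± 1.46 CPM in the E8 control, change -0.77 on the log2 scale, SE 0.12, adjusted p = 0.000166). PORCN was not called (12.3 ± 0.895 and 11.6 ± 0.743 CPM, adjusted p = 0.49, 95% log2 interval -0.08 to 0.24). Of the 12 genes of Wnt production and release, 1 was called higher, the trafficking gene TMED2 (log2 fold change 0.13), and 3 lower.

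Of 17 tested Frizzled receptors and co-receptors, 1 was called higher and 7 lower. FZD8 and FZD5 fell most among those reaching 1 CPM, by 1.29 and 1.08 on the log2 scale, and ADGRA2, a co-receptor for WNT7A and WNT7B, was the gene called higher (log2 fold change 0.34, adjusted p = 0.0149). The co-receptors LRP6 (log2 fold change -0.025, adjusted p = 0.611) and ROR2 (log2 fold change -0.087, adjusted p = 0.362) were not called. Among 15 tested secreted antagonists, 1 was called higher and 5 lower. FRZB, a secreted Frizzled-related binder of Wnt, fell most among those reaching 1 CPM, with 2.19 ± 0.213 CPM with PEG and HS and 11.6 ± 0.924 CPM in the E8 control (log2 fold change -2.41, adjusted p = 1.65e-10). SFRP1 and SFRP2, also binders of Wnt proteins and far more abundant than any ligand, went opposite ways. SFRP1 was at 645 ± 19.0 CPM with PEG and HS and 997 ± 16.8 CPM in the E8 control (adjusted p = 1.63e-10), and SFRP2 at 675 ± 11.6 and 486 ± 16.3 CPM (adjusted p = 6.62e-09). Of 9 R-spondins and their receptors, LGR4 alone was called, with 87.4 ± 1.93 CPM with PEG and HS and 149.7 ± 5.72 CPM in the E8 control (adjusted p = 1.88e-10).

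Of 20 cytoplasmic and nuclear genes of the pathway, 3 were called higher and 7 lower, and CTNNB1, which encodes beta-catenin, was not called (511 ± 7.70 and 532 ± 9.02 CPM, adjusted p = 0.115). Of 15 tested genes that beta-catenin is known to raise, 2 were called higher and 6 lower. AXIN2, the feedback inhibitor most used as a readout, was lower by 0.27 on the log2 scale (48.9 ± 0.987 and 59.1 ± 1.60 CPM, adjusted p = 5.59e-05), while the feedback inhibitors NKD1 and NKD2 were higher, with log2 fold changes of 0.30 and 0.36. TNFRSF19 (log2 fold change -2.50) and BMP4 (-2.34) fell most among those of this list reaching 1 CPM. Of 14 planar cell polarity genes 1 was called higher and 5 lower, with PRICKLE1 falling most among those reaching 1 CPM (log2 fold change -0.93, adjusted p = 7.02e-11).

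**Figure D4:**
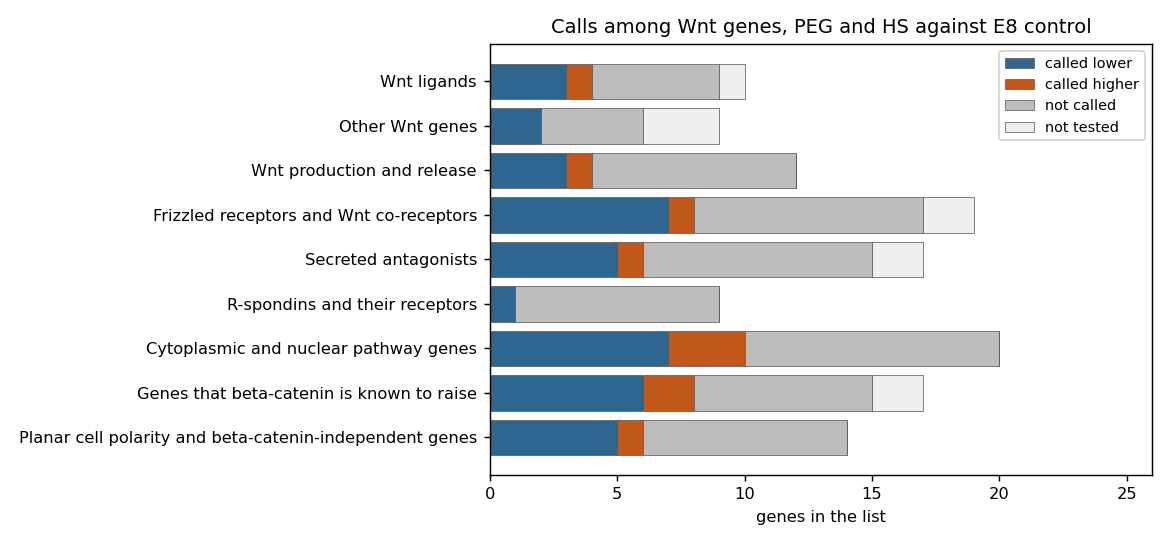
Number of genes of each Wnt list called lower, called higher, not called or not tested, PEG and HS against E8 control, at an adjusted p under 0.05 with edgeR. Every list holds more genes called lower than higher, from 1 lower and 0 higher among the R-spondins and their receptors to 7 lower and 1 higher among the receptors. Earlier results of these data were known when the lists were chosen.

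By the root mean square distance of centred log2 CPM over the 6 libraries, among genes with a mean of at least 1 CPM, the patterns most like that of WNT4 were those of SAMD11 (0.125), ID4 (0.134) and FRZB (0.134). For WNT10B they were LDHD (0.333), MMP24 (0.369) and HES4 (0.370), a looser likeness. With 2 groups of 3 libraries, this measure mostly ranks genes by how far the media differ.

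Markers used for other cell types are set beside the 13.1% of all genes called lower. Among genes under 10 CPM, 14.1% were called in either direction. The marker lists were chosen with earlier results of these data known, so the counts below are not independent of the data. The paper had already named SOX1, LHX5 and OTX2 of the neuroectoderm list as lower with PEG and HS. Of 8 neuroectoderm markers, all present, 7 were called lower with PEG and HS. The summed level of the 8 was 32.3 to 36.9 CPM with PEG and HS and 131 to 135 CPM in the E8 control. OTX2 (means 18.6 and 79.4 CPM) made up most of that sum, followed by LHX5 (5.73 and 29.6 CPM). Amnion and trophectoderm markers summed to 6.94 to 7.15 CPM and 14.9 to 15.9 CPM, with 3 of 6 tested called lower and CGA at 0. Primitive streak and mesoderm markers, 2 of 7 tested called lower, summed to 5.90 to 6.05 CPM and 6.40 to 7.84 CPM with MSGN1 at 0. HAND1, with 1 count over PEG and HS and 15 over E8 control, is in both of these lists and counts among the calls of both. DESeq2 called 6 neuroectoderm, 2 amnion and trophectoderm and 1 primitive streak and mesoderm markers. Endoderm markers, 0 of 4 tested called by edgeR, limma-voom or DESeq2 and 1 at an unadjusted p under 0.05, summed to 3.11 to 3.32 CPM and 4.02 to 4.67 CPM. Neural crest markers summed to 53.5 to 58.0 CPM and 45.2 to 47.7 CPM, a sum made mostly of FOXD3, which was called higher (51.9 and 41.6 CPM). Of the other 4 neural crest markers, SOX10 was called lower and 3 were not called, and the median log2 fold change of the list was -0.48. Bulk RNA does not show whether these transcripts, FOXD3 and OTX2 among them, came from such cells or from pluripotent cells. The part of these cell types in the lower WNT4, WNT10B and WNT2B was not tested.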

How the data were processed

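The authors prepared stranded poly(A) libraries, trimmed reads with Trim Galore 0.6.7, mapped them to GRCh38 with STAR 2.6.1 (versions from the submitters' processing notes) and deposited raw counts per gene, 1 library per file, with genes at 0 still listed. The counting tool, its strand setting and how reads matching several genes were handled are not given in the sources used here. Of 19977 identifiers, 19916 matched GENCODE 44 (GRCh38), which gave symbols, coordinates and exon lengths. Promoter windows are from RefSeq (GRCh38.p14).

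Genes whose summed count reached 10 entered edgeR 4.0.16 in R 4.3.3 (TMM, glmQLFit and glmQLFTest on medium alone), and p was adjusted by Benjamini-Hochberg over the 16505 genes. Each SE was derived from the log2 fold change and its F statistic, and the 95% intervals use the matching t distribution. For 1 gene, 3 libraries against 3 allow no exact permutation p below 0.1. Tested on simulated counts for this comparison (16392 genes, 200 changed 2-fold), edgeR recovered 98.0%, and 8.41% of its calls were false. That false share is higher than the adjusted p threshold of 0.05 allows for. The changed genes were drawn only from those with a mean over 1 CPM, and their recovery was given together, not by level. That recovery therefore does not show how well changes in ligands with few counts, such as WNT10B, WNT3A and WNT11, are found. Libraries of 1 medium were not copies of each other (chi-square over degrees of freedom 2.61 to 3.60). Alternatives used DESeq2 1.42.0 and limma 3.58.1 (voom), other normalizations and filters, a replicate block and left-out libraries.

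The ligands and lists were chosen with earlier results of these data known. Named were all Wnt genes and, from each list, up to 2 called genes in each direction reaching 1 CPM in all libraries of the medium where they were higher, plus AXIN2, PORCN, WLS, CTNNB1, LRP6 and ROR2.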

Additional observations from a re-analysis of the deposited data

How the results depend on the processing

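The 4 calls among the ligands became 2 with DESeq2 (WNT4 and WNT5B), 1 when tested against a 1.5-fold change (WNT4), and 2 to 4 with each library left out in turn, with 2 left without PEG and HS replicate 1 (WNT4 and WNT10B). The 43 calls among the pathway genes became 8 when tested against a 1.5-fold change and 33 to 39 with each library left out. The cause of these moves was not tested, except that a 1.5-fold limit is stricter by construction. With CPM per kb of the longest transcript, 6 of the 10 ligands kept their E8 control rank. Ligands that were not called had log2 fold changes that turned sign: WNT3A to 0.070 and WNT11 to 0.0072 with limma-voom, and, with each library left out, WNT3A between -0.25 and 0.41, WNT7B between -0.25 and 0.030, WNT11 between -0.48 and 0.14, and WNT9B, outside the group, between -0.80 and 0.22. Same-numbered replicates of the media gave no sign of deviating together (Pearson's r across 13557 genes -0.015, 0.028 and 0.060). Differently numbered replicates gave -0.094 to 0.063. Whether the numbers pair the samples is not settled by these values. With the replicate number as a block, 4 ligands and 44 pathway genes were called, and WNT8A lost its call. Other normalizations and the fit without a filter on low counts left 4 ligands called, and filterByExpr, which tested 6 ligands, left 3. Low counts limit WNT3A, WNT6, WNT10B and WNT11 most.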
